A study of Mus musculus with 2 samples.

Results

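The 3′UTRs of protein-coding genes were taken as the exon bases downstream of the stop codon of protein-coding transcripts in the mm9 GENCODE vM1 annotation, leaving out every base that is coding in another transcript of that strand. Of 22380 protein-coding genes, 19961 had a 3′UTR under this rule, with 26044572 bases in all and a median length of 834 nt. A tag was counted in a 3′UTR when its middle base lay there on the strand of the gene. This gave 13550 of 188766 tags in the WT table and 57387 of 392681 tags in the Mbnl1 KO table. Of the 19961 3′UTRs, 3231 had tags in both tables, 557 in WT only, 2672 in Mbnl1 KO only and 13501 in neither, and 851 had at least 20 tags in the 2 tables together. Bases were shared with the 3′UTR of another gene in 161 of the 19961, including 8 of the 851, and tags on those bases count for both genes.

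The tags come from HITS-CLIP of Mbnl2 in quadriceps muscle. Frozen, powdered muscle of WT and Mbnl1-/- mice, 15 to 16 weeks old and labelled C57BL/6, was crosslinked with UV light, trimmed with RNase A (38.6 U/ml as high and 0.0386 U/ml as low RNase) and immunopurified with the monoclonal antibody 3B4 against Mbnl2. Mbnl1-/- mice (Mbnl1 KO) carry the constitutive ΔE3 allele, named for exon 3 of Mbnl1, and the study's methods name a mixed background for its compound knockouts. The 3 mice of each genotype are merged in 1 table, which does not tell RNase levels apart and leaves no spread between mice to test a difference against. All intervals below are 95% intervals that cover counting error only and compare these 2 tables, not the genotypes.

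Muscleblind-like proteins are zinc-finger RNA-binding proteins that recognise YGCY tetramers, in which Y is C or T in the DNA letters used here. They are best known as splicing regulators that drive the adult pattern of exon use in skeletal muscle, and are sequestered by expanded CUG and CCUG repeats in myotonic dystrophy. They also bind 3′UTRs, the part of an mRNA in which signals for polyadenylation, stability, localization and translation are found.

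The sequences under pile-ups of tags in the most tagged 3′UTRs show what kind of site is meant. Overlapping tags, pooled over both tables, formed 345 clusters with at least 20 tags in 240 3′UTRs, and the window of 30 nt around the highest point (the summit) of the tallest cluster is shown for the 10 3′UTRs with the most tags and for Mbnl2. Sequences are from the mm9 genome on the transcript strand, with every YGCY in capitals, be it TGCT or its relative TGCC, or be it CGCT or its relative CGCC. Only the transcript strand was searched. A match is a description of the letters, not proof of a binding site.
Hipk3, chr2:104268902-104268931, minus strand: aatatttactgttgaagcttgaaaagatgt
Mef2c, chr13:83806043-83806072, plus strand: tTGCTtgaaTGCTggtgtctgttagaatgc
Lars2, chr9:123371115-123371144, plus strand: gacgtCGCTttttgatccttcgatgtcggc
Rtn4, chr11:29642586-29642615, plus strand: gcTGCCccacagTGCTtgacctctgagtca
Mbnl1, chr3:60433515-60433544, plus strand: cacaacttactttcTGCTtgtagtggctta
Ldb3, chr14:35374507-35374536, minus strand: tatacttgtgTGCTggcttcatagttcttt
Rhoq, chr17:87397093-87397122, plus strand: acagtaacaaggcttctggcaactgtagat
Myadm, chr7:3299141-3299170, plus strand: TGCTTGCTtctTGCTGCTGCTttcTGCTtc
Kif1b, chr4:148610765-148610794, minus strand: tttaatagTGCTttgatatcccaaaagacc
B230120H23Rik, chr2:72240642-72240671, plus strand: tgacttTGCTtttgCGCTcagaaaagggca
Mbnl2, chr14:120829919-120829948, plus strand: tgtaatcttgcatagTGCTtgtgtcgtgtt

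Of these 11 windows, 9 held a YGCY, and the window of Myadm held 6 copies. The windows of Hipk3 and Rhoq held none but contained GCTT, which also occurs in several of the other windows. Across all 345 clusters, 274 summit windows (79.4%, interval 74.8 to 83.6) held at least 1 YGCY, against 27.9% of all windows of 30 nt in 3′UTRs, and 148 (42.9%) held at least 2, against 5.07% of all windows. Of the 71 summits without YGCY, 54 held GCT, and 31 of them GCTT, a count made after these windows were seen. GCTT was in 218 of all 345 clusters (63.2%) and in 11.7% of all 3′UTR windows of 30 nt. The Lars2 window occurs at 2 places in the genome, so tags there may come from the other copy, while the other 10 windows occur once.

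The tables themselves differed before any 3′UTR was counted. Single-base tags, whose reference sequence is at least 70% one base, were left out, and they made up 44.0% of the WT and 17.0% of the Mbnl1 KO tags on assembled chromosomes. Within 3′UTRs they were rare, with 550 (3.90%) of the WT and 354 (0.613%) of the Mbnl1 KO tags. The 3′UTR tags of WT were shorter (median 23 nt, 19.4% of at least 30 nt) than those of Mbnl1 KO (median 26 nt, 42.5%), and 39.4% of them rested on 1 read against 32.2%. Both differences move with every Mbnl1 KO/WT ratio below, and their part in it was not tested beyond the settings given in the closing section. RNA levels were not measured in these tables, so more RNA of a gene, more cells that express it and more Mbnl2 per RNA cannot be told apart.

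The first question was how Mbnl2 tags are spread over the parts of a transcript and whether 3′UTRs carry more of them when Mbnl1 is lost. In both tables the 3′UTRs were the most densely tagged class of protein-coding genes. Their share was 7.18% of all WT tags (7.06 to 7.30) and 14.6% of all those from Mbnl1 KO (14.5 to 14.7), a density of 2756 and 5611 normalised tags (tags per 1000000 tags of the table) per Mb of 3′UTR. This density was 3.48 times that of coding exons in WT and 3.91 times in Mbnl1 KO, 4.94 and 8.08 times that of 5′UTRs, and 11.1 and 20.9 times that of introns. The share of all tags that fell in 3′UTRs was 2.04 times as large in Mbnl1 KO as in WT (1.998 to 2.07). These values depend on which tags are kept: with tags of at least 2 reads the shares were 14.9% and 22.02% (ratio 1.48), with at least 25 nt 17.1% and 24.1% (1.41), and with at least 10 reads 22.9% and 29.7% (1.297).

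**Figure D1:**
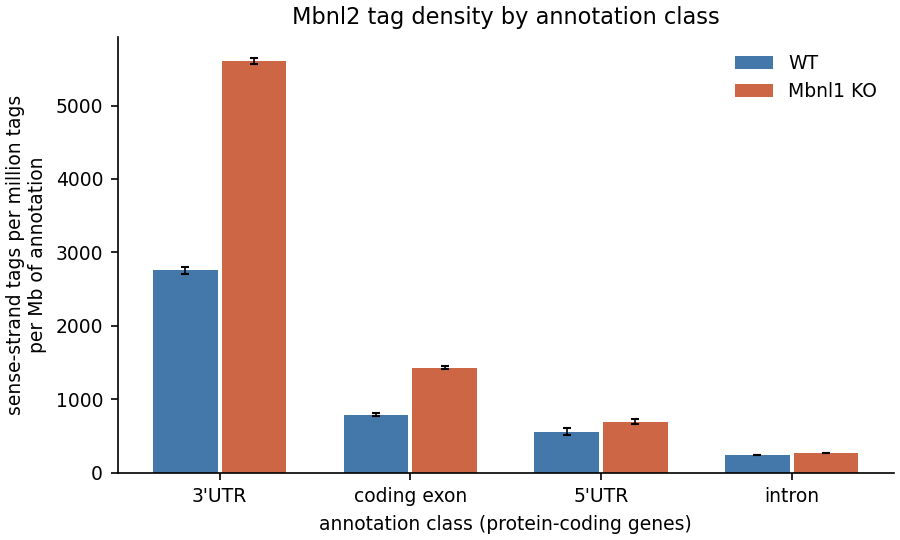
Normalised Mbnl2 tags per Mb of annotation on the sense strand, for 4 annotation classes of protein-coding genes, in WT (blue) and Mbnl1 KO (orange). Bars start at 0 and thin lines are 95% Clopper-Pearson intervals. The 3′UTR bars stand at 2756 and 5611, above every other class in both tables.

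Coding exons went the same way as 3′UTRs, and introns and 5′UTRs much less so. The Mbnl1 KO/WT ratio was 1.81 (1.76 to 1.87) in coding exons, 1.24 (1.13 to 1.37) in 5′UTRs and 1.09 (1.07 to 1.10) in introns. It was 0.796 (0.790 to 0.801) for tags with no annotated exon or protein-coding gene on their own strand. That class includes tags antisense to genes and tags in introns of noncoding genes. Set against coding exons, the 3′UTR ratio was therefore 1.12 times as large (1.09 to 1.17), and set against introns 1.88 times (1.83 to 1.92). Taken as a whole, the antisense strand of 3′UTRs gave no such difference, with 902 tags in WT, 1815 in Mbnl1 KO and a ratio of 0.967 (0.893 to 1.05). Its parts, given below, did differ. Antisense tags made up 6.24% of all tags over 3′UTRs in WT and 3.07% in Mbnl1 KO, the lowest share of the 4 classes in both tables.

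Some antisense tags belonged to annotated 3′UTRs of other genes. Of the antisense tags, 12.1% in WT and 29.8% in Mbnl1 KO lay in the 3′UTR of another gene on their own strand, where genes overlap tail to tail. These were 109 and 540 tags, while 729 and 1084 had no annotated exon or protein-coding gene on their own strand. After scaling, the former were higher and the latter lower in Mbnl1 KO, so the ratio over all antisense tags joins opposite differences. On their own strand 37.6% of the WT and 49.04% of the Mbnl1 KO antisense windows held YGCY, against 24.03% of all windows on that strand. Among those with annotation on their own strand the share was 59.5% in WT and 62.5% in Mbnl1 KO, close to that of sense tags, and among those without it was 32.4% and 39.9%.

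The 3′UTR also took a larger part of the tags of its own gene. Over all genes with a 3′UTR, 21.5% of the sense tags in WT (21.2 to 21.8) and 32.2% in Mbnl1 KO (32.0 to 32.4) lay there. In the 520 genes with at least 20 sense tags in each table the shares were 26.2% and 37.0%. Per gene the shift was small, with a median share of 10% in WT and 13.7% in Mbnl1 KO, and a higher share in Mbnl1 KO in 287 genes and a lower one in 116. The exact intervals of the 2 shares lay apart in 11 of the 520 genes, higher in Mbnl1 KO in 10 (1.92%) and lower in 1 (0.192%).

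Those 10 genes have roles that range from transcription to signalling, and they are named here after their values were seen. At Usp9x, a deubiquitinase, the 3′UTR held 16 of 31 gene tags in WT and 135 of 162 in Mbnl1 KO. At Zbtb20, a zinc-finger repressor, it held 26 of 105 and 150 of 347. The 3′UTR of Zbtb20 has 23555 bases and shares some of them with the 3′UTR of another gene. Camk2d, a calcium/calmodulin-dependent kinase, had 3 of 25 and 29 of 67, and Phkb, a subunit of the phosphorylase kinase that starts glycogen breakdown, 2 of 23 and 27 of 52. Arih1, Ttll7, Etl4, Dennd1b and Cux1 were the others besides Mbnl2. The single gene on the other side was Nufip2, with 19 of 22 tags in WT and 38 of 74 in Mbnl1 KO.

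Tags were spread over many 3′UTRs rather than held by a few. In WT 3788 3′UTRs (18.98%) had a tag and in Mbnl1 KO 5903 (29.6%), and 464 and 451 of them held 50% of all 3′UTR tags. The 10 most tagged held 4.33% in WT and 4.75% in Mbnl1 KO. The Mbnl1 KO/WT ratio was 1.52 (1.44 to 1.60) over 3′UTRs with 1 to 4 tags and 1.97 (1.86 to 2.08) with 5 to 9 tags. It lay between 2.09 and 2.16 in every class of 10 tags or more, up to the 90 3′UTRs with at least 100 tags. The classes were cut on the tags of both tables together, most of them from Mbnl1 KO. The rise of the ratio over the classes is therefore partly set by the cut.

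Over the 851 3′UTRs with at least 20 tags the median Mbnl1 KO/WT ratio was 2.20 (2.12 to 2.30), with quartiles at 1.65 and 3.04. The ratio was above 1 in 818 of them and at least 2 in 503 (59.1%). It was 0.5 or below in 1 (0.118%). The interval lay above 1 in 405 (47.6%) and below 1 in 0. The minimum of 20 tags is met mostly through the larger Mbnl1 KO table, in which 678 3′UTRs had at least 20 tags alone, against 90 in WT. The balance of higher and lower 3′UTRs is partly set by this minimum, here and in the gene lists, and is given as a description. By the same rule, 57.8% of 154 genes were at least 2-fold higher over their coding exons (median 2.21) and 15.1% of 1879 genes over their introns (median 1.12). The share of calls depends on the scale: with ratios scaled to the tags in coding exons, the 3′UTR median was 1.21, and 15.9% were at least 2-fold higher and 2.59% at least 2-fold lower. On that scale 42 of the 66 3′UTRs selected by the rule for named genes that gave a ratio lay above 1. Of those not above 1, Lars2, Myadm, Sh3bgr, Pvalb, Col1a1 and Col6a1 had an interval above 1 when scaled, as elsewhere in the text, to the tags left without single-base tags.

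**Figure D2:**
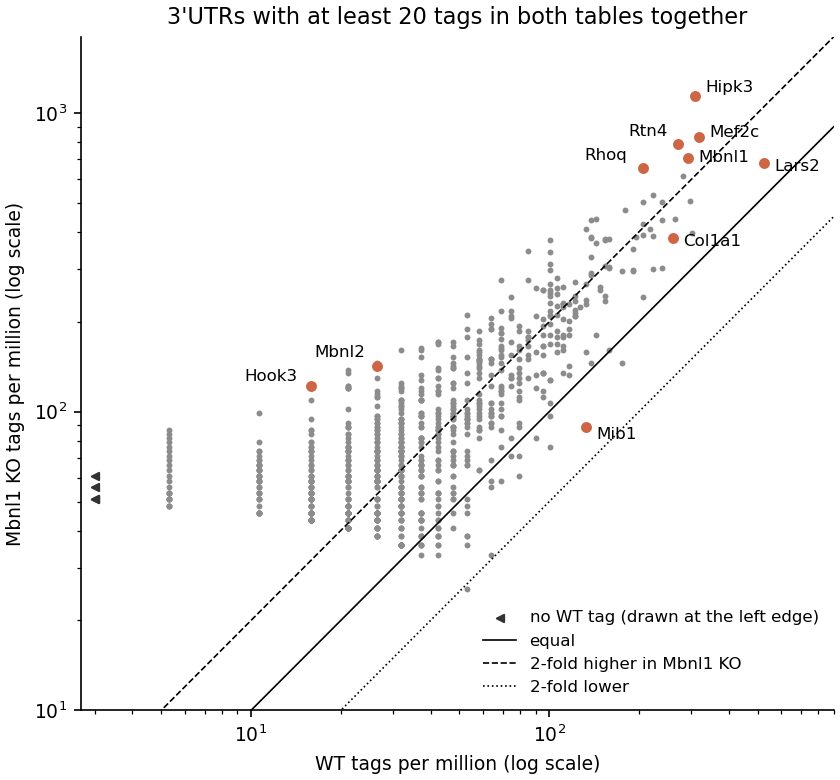
Normalised tags, per 1000000 tags left without single-base tags, in WT (x, log scale) and Mbnl1 KO (y, log scale) for the 851 3′UTRs with at least 20 tags. The solid line marks equal values, the dashed line a 2-fold higher and the dotted line a 2-fold lower value in Mbnl1 KO, triangles at the left edge have no WT tag, and orange points are named. Of the 851 3′UTRs 818 lie above the line of equal values and 503 on or above the dashed line.

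Mbnl1 was the fifth most tagged 3′UTR. It lies at chr3:60429103-60433670 on the plus strand, in 2 pieces with 3387 bases, and had 55 tags in WT and 277 in Mbnl1 KO, or 291 and 705 normalised tags. This is a ratio of 2.42 (1.81 to 3.30). These tags lie downstream of the stop codon, outside the exon named by the allele, so they do not check the genotype. Coding exons of Mbnl1 had 1 WT and 6 Mbnl1 KO tags, too few to check it either. Introns of Mbnl1 went the same way as its 3′UTR, with 38 and 165 tags and a ratio of 2.09.

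Mbnl2, the gene of the immunopurified protein, showed one of the larger ratios. Its 3′UTR (chr14:120828285-120830919, plus strand) had 5 tags in WT and 56 in Mbnl1 KO, for a ratio of 5.38 (2.17 to 17.2). Introns of the same gene had 21 and 59 tags, with a ratio of 1.35, so that the 3′UTR held 16.7% of the tags of the gene in WT (5.64 to 34.7) and 44.8% in Mbnl1 KO (35.9 to 54.0). Its tallest cluster, shown above, had 1 WT and 24 Mbnl1 KO tags. The 3′UTR of Mbnl3, the paralog found mainly in fetal tissue and in regenerating muscle, had no tag in either table, which allows up to 3 tags in each by a one-sided 95% limit.

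The other genes among the 10 most tagged 3′UTRs belong to several pathways. Hipk3, a homeodomain-interacting kinase, came first with 58 WT and 447 Mbnl1 KO tags and a ratio of 3.70 (2.81 to 4.96). Nearly all tags of the gene lay in its 3′UTR (93.5% in WT and 96.5% in Mbnl1 KO), where they formed 8 clusters, the tallest with 11 and 85 tags. Mef2c, a transcription factor of muscle differentiation, had 60 and 326 tags (ratio 2.61, 1.98 to 3.5) in 5 clusters. These were among the broad patterns, in which no cluster held more than 19.01% of the 3′UTR tags.

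Rtn4 and Myadm were the opposite kind, with most or much of the signal in one place. Rtn4, a reticulon of the endoplasmic reticulum membrane, had 51 WT and 308 Mbnl1 KO tags (ratio 2.90, 2.15 to 3.99), and 74.1% of them lay in its tallest cluster. Myadm, a membrane protein of the MAL family, had 56 and 199 tags (1.71, 1.26 to 2.34), with 49.8% in the cluster that holds 6 YGCY at its summit. In that cluster the tags numbered 37 in WT and 90 in Mbnl1 KO, a ratio of 1.17 (0.789 to 1.76) that does not separate the tables.

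Ldb3, the Z-disc protein also called Cypher or ZASP, had 53 WT and 242 Mbnl1 KO tags (ratio 2.19, 1.62 to 3.01). Rhoq, a small GTPase known from insulin-stimulated glucose uptake, had 39 and 256 (3.16, 2.25 to 4.54). Kif1b, a kinesin motor, had 42 and 209 (2.39, 1.71 to 3.42) over 7723 bases, and B230120H23Rik had 45 and 198 (2.12, 1.52 to 2.99). The intervals of these 4 ratios overlap, so they have no order beyond counting error. Lars2, the mitochondrial leucyl-tRNA synthetase, had the most WT tags of any 3′UTR, 99 against 268, and the lowest ratio of the 10, 1.30 (1.03 to 1.66). Its ratio fell below 1 under several settings given in the closing section, and 67.0% of its tags lay in the cluster whose summit occurs at 2 places in the genome.

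**Figure D3:**
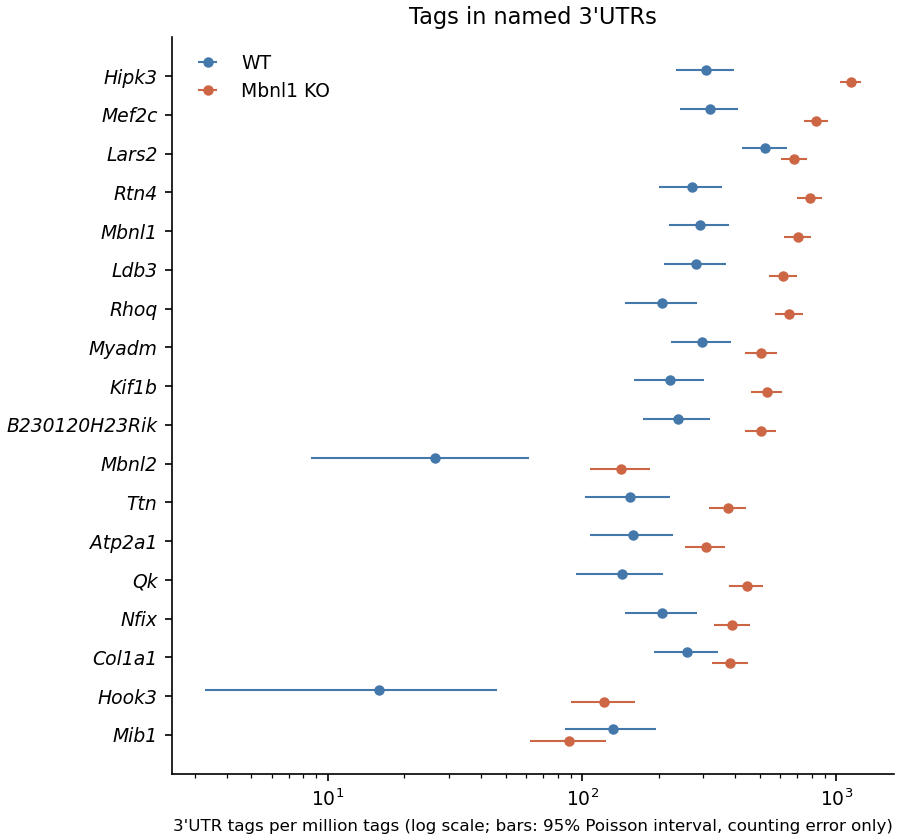
Normalised tags per 1000000 (x, log scale) in named 3′UTRs, in WT (blue) and Mbnl1 KO (orange), with 95% Poisson intervals that cover counting error only. The first 10 are the most tagged 3′UTRs, of which Hipk3 is highest in Mbnl1 KO, at 1138, and Lars2 is highest in WT. Mib1 is the only gene drawn whose Mbnl1 KO value is below its WT value.

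Per length, among 3′UTRs of at least 200 bases and 20 tags, 3 of the 5 densest held nearly all tags in 1 cluster. Shorter 3′UTRs, such as that of Fxyd1 with 167 bases and 551 tags per kb in both tables together, were not ranked. The summit of the tallest cluster in each of these 5 is shown with the same conventions as above, where that of Lars2 is given. That sequences are shown for them was decided after the values were seen.
Sh3bgr, chr16:96450464-96450493, plus strand: acTGCTtgttttaggcttggctttcagaac
Atp2a1, chr7:133589542-133589571, minus strand: cttcagccaaagctgaggcactgacccttc
Sepw1, chr7:16502630-16502659, minus strand: ccctccTGCTtTGCTttccctttccacctc
Pkm2, chr9:59526698-59526727, plus strand: attaggccagcaaCGCTtgtagTGCTcact

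Sh3bgr, an SH3-domain-binding glutamate-rich protein, had 684 normalised tags per kb in WT and 1209 in Mbnl1 KO, from 28 and 103 tags on 217 bases, and 99.2% of them lay in 1 cluster. Atp2a1, the fast-twitch calcium pump Serca1, had 568 and 1091 from 30 and 120 tags on 280 bases, again with 99.3% in 1 cluster. Its summit held no YGCY. Sepw1, a selenoprotein, had 412 and 1057, with all 171 of its tags in 1 cluster of 2 YGCY at the summit. Lars2 (532 and 692) and Pkm2, the muscle pyruvate kinase gene (353 and 650), completed the 5. The ratio of Pkm2 fell to 0.857 with tags of at least 10 reads. The Pkm2 window occurs at 4 places in the genome, so these tags are uncertain in origin.

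The largest and smallest ratios among 3′UTRs with at least 50 tags rested on few WT tags on one side and none of the intervals lay below 1 on the other. Hook3, a microtubule adaptor, had 3 WT and 48 Mbnl1 KO tags (7.69, 2.48 to 38.6). The transcription factors Prrx1 (4 and 54) and Maf (4 and 53) and 1110067D22Rik (4 and 48) followed, with ratios of 6.49, 6.37 and 5.77. At the other end, Mib1, a ubiquitin ligase of Notch signalling, had 25 and 35 tags (0.673, 0.391 to 1.17). Amd2 (33 and 57), Nufip2 (19 and 38), Amd1 (30 and 63) and Amotl1 (26 and 57) had ratios from 0.830 to 1.05. Amd1 and Amd2 encode S-adenosylmethionine decarboxylase and 91.5% of the 25-base words of the Amd2 3′UTR occur in that of Amd1, so their tags cannot be assigned to one copy with certainty.

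Single clusters had a median ratio of 2.003 (1.84 to 2.16), with 173 of 345 at least 2-fold higher (50.1%) and 2 at least 2-fold lower (0.58%). Clusters were kept on 20 tags of both tables together, to which Mbnl1 KO gave 10920 and WT 2649, so this balance too is partly set by the minimum. In 3 clusters no WT tag was counted. The 2 lower clusters lay in Ppp6c and Mib1. That in Ppp6c had 14 WT and 13 Mbnl1 KO tags (0.446, 0.193 to 1.02), and its interval included 1. The cluster in Mib1 had 12 and 8 tags (0.320, 0.114 to 0.853), the lowest ratio of those with WT tags, and was the only cluster whose interval lay below 1.

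The 3′UTRs were then grouped by the function of the gene. The lists were chosen with earlier results of these data known, and each is set against the 851 3′UTRs, of which 59.1% were at least 2-fold higher at a median of 2.20. Beside each median stands the ratio of the summed tags of all 3′UTRs of the list, which does not depend on the minimum of 20 tags and was 2.04 over all 3′UTRs. Sarcomere genes had 52 annotated 3′UTRs, 38 with tags and 12 with at least 20. Of these 12, 10 were at least 2-fold higher (median 2.31), and the ratio of the summed tags was 2.29 (1.98 to 2.66). Ttn, the giant elastic filament, had 29 WT and 147 Mbnl1 KO tags in its 3′UTR (2.44, 1.63 to 3.77), where its coding exons had 259 and 743 and a ratio of 1.38 (1.196 to 1.59). The Z-disc LIM proteins Pdlim3 (19 and 123, ratio 3.11) and Pdlim5 (16 and 108, 3.24) had the highest ratios of the list, and Tcap, the titin cap, the lowest (9 and 20, 1.07).

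Of 15 calcium-handling genes 8 were at least 2-fold higher, with a median of 2.06 and a summed ratio of 2.01 (1.75 to 2.33). Ppp3ca, the catalytic subunit of calcineurin, had 13 WT and 108 Mbnl1 KO tags (3.99, 2.24 to 7.74). Camk2d had 3 and 29 (4.65), while its relative Camk2a had 14 and 32 (1.10, 0.570 to 2.23). Casq1, the calcium store protein of the sarcoplasmic reticulum, had 16 and 70 (2.10, 1.21 to 3.88), and Pvalb, the calcium buffer of fast fibres, 24 and 88 (1.76, 1.11 to 2.90). The Pvalb ratio fell below 1 with tags of at least 25 nt (0.898), with at least 10 reads (0.603) and scaled to coding exons (0.974).

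Membrane excitability genes had a median of 3.09 over 8 3′UTRs, of which 6 were at least 2-fold higher, but over all members the summed ratio was 2.19 (1.80 to 2.66). Atp1b2, a beta subunit of the sodium pump, had 5 WT and 57 Mbnl1 KO tags (5.48, 2.22 to 17.5), and Atp1b1, its main relative, 41 and 161 (1.89, 1.33 to 2.73). The potassium channel gene Kcnj2 had 7 and 60 (4.12, 1.88 to 10.7), and Ank1, whose small muscle form ties the sarcoplasmic reticulum to the contractile apparatus, 9 and 60 (3.20, 1.58 to 7.35). Their intervals overlap that of Fxyd1, the pump regulator phospholemman, with 21 and 71 tags and the lowest ratio of the 8, 1.63 (0.987 to 2.79).

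Energy metabolism gave the most members, 23, of which 16 were at least 2-fold higher at a median of 2.75, and the summed ratio was 2.13 (1.88 to 2.42). The muscle phosphofructokinase gene Pfkm had 14 WT and 85 Mbnl1 KO tags (2.92, 1.65 to 5.56), and the pyruvate dehydrogenase kinase gene Pdk2 19 and 98 (2.48, 1.51 to 4.29). Phkb and Phka1, subunits of phosphorylase kinase, had 2 and 27 and 13 and 75 tags. Pdp1, the pyruvate dehydrogenase phosphatase, had the highest ratio with 1 and 27 tags (12.98, 2.14 to 531). Adenylate kinase Ak1 (15 and 24, 0.769), Cpt1b (7 and 13, 0.893) and Got1 (7 and 14, 0.961) lay below 1, each with an interval that included 1.

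Genes of RNA processing had 16 3′UTRs with at least 20 tags, 10 of them at least 2-fold higher (median 2.15, summed ratio 2.30, 1.99 to 2.67). Besides Mbnl1 and Mbnl2, the quaking gene Qk, a splicing regulator of muscle and glia, had 27 WT and 174 Mbnl1 KO tags (3.10, 2.06 to 4.84). Celf1, whose protein acts against Mbnl1 on many exons, had 5 and 46 (4.42, 1.76 to 14.3), while Celf2 had 12 and 39 (1.56, 0.801 to 3.28). Rbfox1 and Rbfox2 had 6 and 30 and 11 and 25 tags, with ratios of 2.40 and 1.09 and intervals that include 1.

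Muscle transcription factors had a median of 2.63 over 14 3′UTRs, with 10 at least 2-fold higher and a summed ratio of 2.44 (2.11 to 2.83). Besides Mef2c, given above, Tead1 had 26 and 151 tags (2.79, 1.83 to 4.41). Mef2a (1 and 21 tags) and Mef2d (4 and 30) reached 20 tags through Mbnl1 KO. The nuclear factor I genes Nfix (39 and 153), Nfic (19 and 66), Nfib (11 and 55) and Nfia (12 and 42) had ratios of 1.89, 1.67, 2.40 and 1.68.

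Adhesion and matrix genes had a median of 1.87, with 6 of 14 at least 2-fold higher and a summed ratio of 1.66 (1.45 to 1.92). The collagen genes Col1a1 (49 WT and 150 Mbnl1 KO tags, 1.47, 1.06 to 2.08), Col4a1 (19 and 30, 0.759) and Col6a3 (18 and 44, 1.18) were among the lowest. The matrix proteins Bgn (29 and 121) and Sparc (23 and 96) both had a ratio of 2.01, and that of Bgn fell to 0.893 with tags of at least 10 reads. At Col1a1 the coding exons had the larger ratio, 2.04 (72 and 305 tags), and its 3′UTR ratio fell below 1 under 4 of the other settings. Protein turnover and stress genes had a median of 1.98 and a summed ratio of 1.99 (1.60 to 2.48), with 5 of 10 at least 2-fold higher. Sqstm1, an autophagy receptor (19 and 82), was among them and fell to 0.958 with tags of at least 25 nt.

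**Figure D4:**
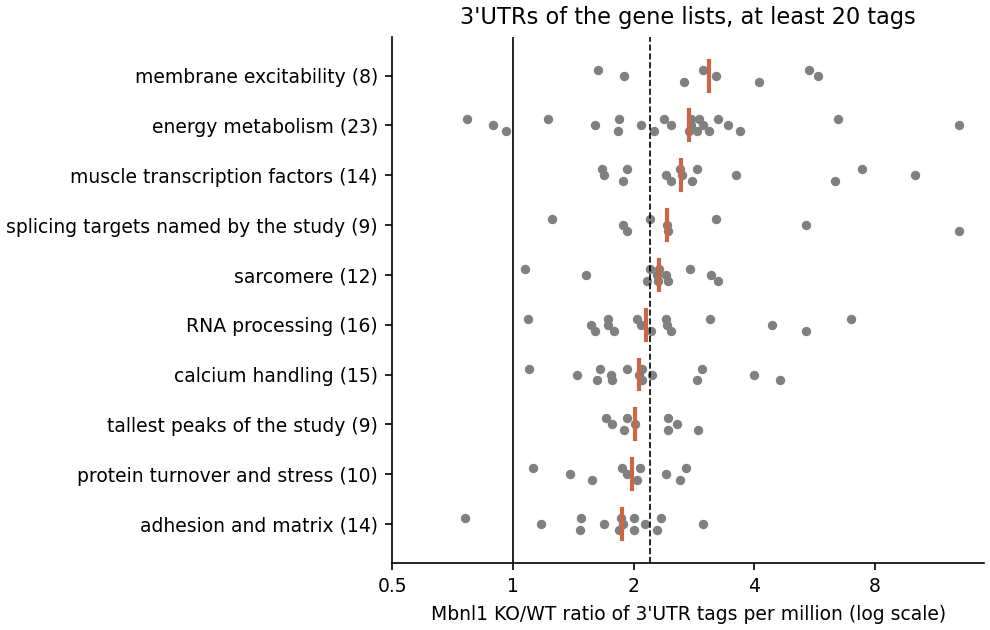
Mbnl1 KO/WT ratio (x, log scale) of each 3′UTR with at least 20 tags in 10 gene lists, with the number of members in brackets. Orange bars are list medians, the solid line is a ratio of 1 and the dashed line the median of 2.20 over all 851 3′UTRs. List medians run from 1.87 for adhesion and matrix genes to 3.09 for membrane excitability genes.

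The list of tallest peaks is no independent evidence, since the study chose it on these samples, and the muscle splicing targets are genes that the study names. The 9 genes with the tallest peaks had a median of 2.02, a summed ratio of 2.19 (1.94 to 2.48) and 5 at least 2-fold higher, and the splicing targets had 9 3′UTRs with at least 20 tags, a median of 2.42, a summed ratio of 2.24 (1.95 to 2.58) and 6 at least 2-fold higher. The myotonic dystrophy genes were thinly tagged. Dmpk, whose 3′UTR holds the expanded repeat in the human disease, had 4 WT and 11 Mbnl1 KO tags (1.32, 0.392 to 5.69), and Cnbp, which is expanded in an intron, had 1 and 6.

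Of the skeletal muscle markers 13 of 14 had 3′UTR tags, summing to 620 normalised tags in WT and 1299 in Mbnl1 KO, and most of these came from Ttn, Atp2a1 and Pvalb. The 3′UTRs of the fast myosin genes had almost none, with 0 WT and 3 Mbnl1 KO tags at Myh4, 0 and 1 at Myh2 and none at Myh1. Creatine kinase Ckm had 7 and 45 and skeletal actin Acta1 12 and 38, and both were among the 287 3′UTRs with at least 50 tags. Of 32 ribosomal protein 3′UTRs 22 had no tag, and all together had 1 WT and 17 Mbnl1 KO tags.

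Heart markers (0 of 6) and neuron markers (0 of 5) had no 3′UTR tag in either table. Fibroblast markers (6 of 7, Fap at 0) summed to 323 normalised tags in WT and 522 in Mbnl1 KO, a ratio of 1.62 (1.21 to 2.19), with 49 WT and 150 Mbnl1 KO tags from Col1a1 alone. The endothelial markers (5 of 7, Kdr and Tek at 0) summed to 90.1 and 132. Schwann cell markers (5 of 6, Sox10 at 0) had 7 and 39 tags, of which Pmp22 gave 5 and 31. Adipocyte markers (3 of 6) had 1 and 13, macrophage markers (1 of 7, Lyz2) 0 and 4, satellite cell markers (2 of 5) 1 and 2, and blood cell markers (2 of 5) 2 and 3. What part these cells have in the ratios was not tested.

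The next question was which letters lie under 3′UTR tags. YGCY was more frequent at tags than in the rest of the 3′UTRs in both tables. Windows of 30 nt around the tag midpoint held at least 1 YGCY on the transcript strand in 62.0% of WT tags (61.2 to 62.8) and 60.3% of Mbnl1 KO tags (59.9 to 60.7), against 27.9% of all 3′UTR windows. Windows 100 to 200 nt away in the same 3′UTRs held it in 29.9% and 29.5%. Over the 851 3′UTRs the share at tags averaged 62.5% and that of all windows of the same 3′UTR 29.97%, and it was higher at the tags in 822 of them. Copies were also more frequent, with 3 or more in 7.42% of WT and 5.35% of Mbnl1 KO windows, against 0.743% of all windows.

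**Figure D5:**
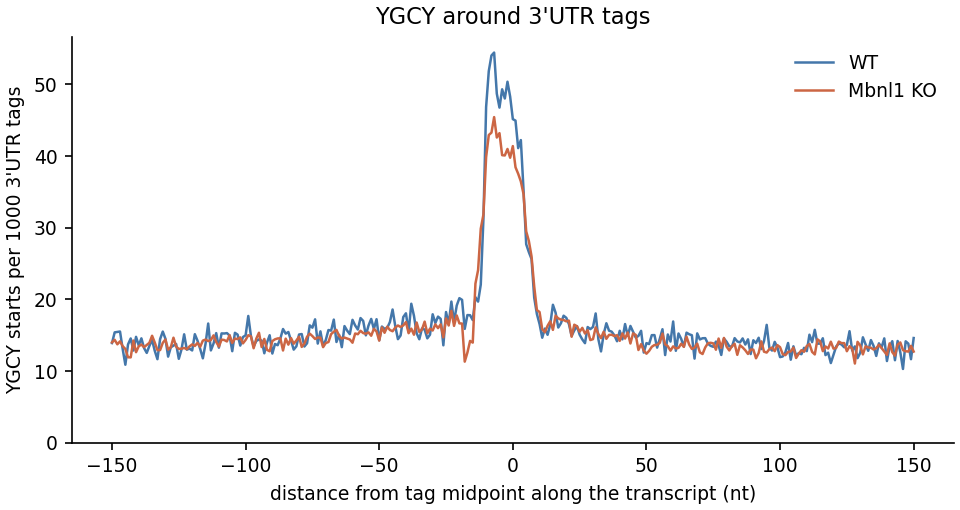
YGCY starts per 1000 3′UTR tags (y) by distance from the tag midpoint along the transcript in nt (x), in WT (blue) and Mbnl1 KO (orange). Within 10 nt of the midpoint the mean was 42.0 in WT and 37.2 in Mbnl1 KO, and 100 to 150 nt away it was 13.6 and 13.5.

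Among the 4 forms of YGCY, those that end in T were the most enriched. TGCT lay in 47.3% of WT and 46.0% of Mbnl1 KO windows, 2.81 and 2.78 times the share in the flanks, and CGCT in 7.14% and 6.54% (2.64 and 2.43 times). TGCC was 1.57 and 1.43 times as frequent as in the flanks and CGCC 1.38 and 1.35 times. Of all words of 4 letters, GCTT had the highest fold in both tables, 2.89 (40.2% and 40.3% of windows), followed by TGCT and CGCT, with which it can overlap.

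Other 3′UTR elements were not raised at tags. The AU-rich word ATTTA was 0.652 times as frequent as in the flanks in WT and 0.596 times in Mbnl1 KO. The polyadenylation signals AATAAA or ATTAAA were 0.614 and 0.637 times as frequent, and the Pumilio motif TGTANATA 0.901 and 0.826 times. The purine counterpart of YGCY, with A or G in place of Y, was 0.855 and 0.898 times as frequent. CTGCTG, which holds a TGCT and resembles the repeat of myotonic dystrophy, was 3.44 and 3.17 times as frequent, in 5.99% and 4.91% of windows.

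The share of YGCY lay between 58.9% and 64.0% at every level of read support. In WT it was 59.2% for tags of 1 read, 64.0% for 2 to 9 reads and 63.8% for 10 or more, and in Mbnl1 KO 59.2%, 58.9% and 62.3%. RNase A cuts after pyrimidines, and the base before the 5′ end was C or T in most tags (T in 37.7% of WT and 45.5% of Mbnl1 KO tags, C in 29.2% and 30.01%). The first base was A in 46.1% of WT and 59.4% of Mbnl1 KO tags, against 26.9% of all 3′UTR bases. The part of this cleavage preference in the word counts was not tested.

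3′UTRs with more YGCY per length carried more tags per Mb and had a smaller Mbnl1 KO/WT ratio. Each quartile of YGCY per kb held 4110 3′UTRs, so not all of the 19961 were ranked by it. From the lowest to the highest quartile of YGCY per kb, the WT density went from 1657 to 2611, 2916 and 3953 normalised tags per Mb, and the Mbnl1 KO density from 3861 to 5520, 5923 and 7258. The ratio over these quartiles was 2.33 (2.21 to 2.46), 2.11, 2.03 and 1.84 (1.77 to 1.91). Length made less difference: from the shortest to the longest quartile the ratios were 1.79 (1.61 to 1.998), 2.05, 1.97 and 2.07 (2.02 to 2.12).

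Tags were spread nearly evenly along 3′UTRs of at least 200 nt. From the stop codon to the 3′ end, successive stretches of 20% of the length held 20.5%, 22.4%, 18.97%, 18.1% and 19.99% of the WT tags and 19.5%, 22.6%, 18.7%, 18.5% and 20.6% of the Mbnl1 KO tags. Averaged with equal weight per 3′UTR, the last 20% held 20.3% and 20.8%. In the first 100 nt after the stop codon of 3′UTRs of at least 1000 nt tags were fewer than an even spread would give, 3.49% (3.16 to 3.86) against 4.17% in WT and 3.04% (2.88 to 3.20) against 4.13% in Mbnl1 KO. In the last 100 nt they were 4.33% (3.95 to 4.72) and 4.60% (4.41 to 4.79).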

How the data were processed

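Mbnl2 HITS-CLIP tags of quadriceps muscle were analysed as 1 merged table per genotype (3 WT and 3 Mbnl1 KO mice). Before deposition the authors quality-filtered the reads, mapped them with BWA (version not given in the sources used here) to mm9, dropped likely PCR duplicates and joined the mice. The deposited score of a tag is a count of collapsed reads that was not normalized. Tags at identical positions occur. The tables held 343554 WT and 476543 Mbnl1 KO tags, of which 337354 and 472915 lay on assembled chromosomes, and this depth limits ratios of 3′UTRs with few tags.

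Tags were counted by their middle base in Python 3.11.15 (scipy 1.17.1, pandas 2.3.3, numpy 2.4.6) and divided by the tags left after single-base tags were removed (scale factor 0.481). Ratios have exact Clopper-Pearson intervals, levels exact Poisson intervals and medians intervals from order statistics, all at 95%. Genotypes were not tested against each other, since each has 1 table. Calls of a 2-fold difference need at least 20 tags in the tables together. The counting, motif windows and intervals were tested on simulated data.

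Named genes are the 10 3′UTRs with the most tags, the 5 with the most tags per kb (at least 200 bases), the 5 highest and 5 lowest ratios with at least 50 tags, up to 4 per list, and Mbnl1, Mbnl2, Mbnl3, Dmpk and Cnbp. Further members of the lists are named after their values were seen. Some items that these rules select are not reported here. The members, lists and rules were chosen with earlier results of these data known. Alternatives were single-base tags kept, tags of at least 2 reads or 25 nt, tags with the same 5′ end collapsed, overlap in place of the midpoint, 1 transcript per gene, other scalings, other minimums, windows of 50 nt, and the 10 most tagged 3′UTRs left out. Tags of at least 10 reads and identical positions collapsed were chosen after the data were seen.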

Additional observations from a re-analysis of the deposited data

Results flagged for a closer look

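The number of reads behind a tag entered the report only as classes of read support and as a minimum, and its mean differed between the tables. A 3′UTR tag stood for 82.3 reads on average in WT and 285 in Mbnl1 KO, with medians of 3 and 4. The means over all tags used were 25.6 and 126 reads, so 3′UTR tags were above the average of their table in both. The part of this difference in the ratios was not tested beyond the settings that drop tags of few reads.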

How the results depend on the processing

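The Mbnl1 KO/WT ratio over all 3′UTRs and the median over 3′UTRs stayed above 1 under every setting run. Leaving out a replicate was not possible because the mice are merged. No paired analysis was possible because each genotype has 1 merged table. At this depth 19110 of 19961 3′UTRs had fewer than 20 tags, 13501 of them none, and no 2-fold call was made for these. Whether they were unbound or not expressed was not tested. Counting any overlap left the shares, ratios and counts given for all 3′UTRs nearly unchanged. With it 855 3′UTRs had at least 20 tags, and 59.1% of them were at least 2-fold higher. The causes of the shifts below were not tested.

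The pooled ratio and the median were 2.92 and 3.21 with single-base tags kept, 1.48 and 1.56 with tags of at least 2 reads, 1.41 and 1.64 with a minimum length of 25 nt, 1.71 and 1.77 after collapsing tags with 1 shared 5′ end, 3.02 and 3.26 scaled to all tags of the table, 4.24 and 4.57 without scaling, and 1.12 and 1.21 scaled to coding exons. With the settings added after the data were seen they were 1.297 and 1.42 (tags of at least 10 reads) and 1.78 and 1.87 (identical positions collapsed).

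The 3′UTR share of tags in WT and Mbnl1 KO was 4.18% and 12.2% with single-base tags kept, 14.9% and 22.02% with at least 2 reads, 6.59% and 11.3% with the same 5′ end collapsed, 17.1% and 24.1% with at least 25 nt, 6.42% and 13.06% with 1 transcript per gene, 6.90% and 14.02% without the 10 most tagged 3′UTRs, 22.9% and 29.7% with at least 10 reads, and 6.67% and 11.9% with identical positions collapsed.

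Of 851 3′UTRs, 827 were at least 2-fold higher and 0 lower without scaling (97.2% higher), 135 and 22 scaled to coding exons (15.9%), and 745 and 0 scaled to all tags of the table (87.5%). Settings that changed the number tested gave 739 and 1 of 856 with single-base tags kept (86.3% higher), 184 and 4 of 569 with at least 2 reads (32.3%), 209 and 0 of 557 with the same 5′ end collapsed (37.5%) and 165 and 13 of 463 with at least 25 nt (35.6%). With at least 10 reads 59 of 290 were higher (20.3%), and with identical positions collapsed 266 of 600 (44.3%). Other minimums left the share near 59.1%, with 928 and 17 of 1633 at 10 tags (56.8%) and 170 and 0 of 287 at 50 (59.2%).

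The YGCY share in WT was 59.7% with single-base tags kept and 57.97% with at least 25 nt. In WT and Mbnl1 KO it was 63.9% and 60.9% with at least 2 reads, 63.8% and 62.3% with at least 10 reads, and 71.8% and 70.4% in windows of 50 nt, against 42.6% of all such windows. In Mbnl1 KO it was 60.8% without the 10 most tagged 3′UTRs and 61.03% with identical positions collapsed. The share in the last 20% of the 3′UTR was 18.5% in WT with at least 25 nt, and in Mbnl1 KO 20.2% with the same 5′ end collapsed, 19.9% with 1 transcript per gene and 20.2% with identical positions collapsed.

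Ratios of named 3′UTRs that were above 1, with intervals above 1, fell below it as follows. Lars2 had 0.960 with the same 5′ end collapsed, 0.608 with at least 25 nt, 0.719 scaled to coding exons and 0.988 with identical positions collapsed. Col1a1 had 0.732 with at least 2 reads, 0.847 with at least 25 nt, 0.813 scaled to coding exons and 0.585 with at least 10 reads. Pvalb had 0.898 with at least 25 nt, 0.974 scaled to coding exons and 0.603 with at least 10 reads. Lpl had 0.867 with at least 25 nt and 0.938 with at least 10 reads, and Sqstm1 0.958 with at least 25 nt. Scaled to coding exons, Myadm had 0.944, Sh3bgr 0.977 and Col6a1 0.929. With at least 10 reads, Pkm2 had 0.857 and Bgn 0.893. Named 3′UTRs without WT tags give no ratio and were not followed.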
